A study of Homo sapiens with 1 sample.

Results

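Far distal intergenic peaks were sites of accessible chromatin far from the starts of protein-coding genes in 786-O, a human cell line of clear cell renal carcinoma that lacks functional VHL. They were taken from the ATAC-seq peak list of 1 library. Its label gives empty vector while its peaks are named as wild type, and the label was followed here. A peak was a member when its summit lay on chromosomes 1 to 22, outside every gene of GENCODE release 44 on hg38, and more than 100 kb from every transcription start of a protein-coding gene. The rule used position alone and no measured value. It selected 6974 of the 86239 autosomal peaks, or 8.09% (exact 95% interval 7.91 to 8.27), in a list of 88676 peaks. The study set this empty-vector control beside cells overexpressing DPF3a, a subunit of the SWI/SNF remodelling complex, and that library is not analysed here. With 1 library there was no replicate and no test, and the values describe this library. Intervals cover counting error only, and they are too narrow where neighbouring peaks move together.

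ATAC-seq marks open DNA by letting the Tn5 transposase insert sequencing adapters into it. Open sites far from any start are usually enhancers, which bind transcription factors and can act on a promoter through a DNA loop, or insulator sites, where CTCF stops the cohesin complex that extrudes such loops. AP-1, a dimer of JUN and FOS family proteins, binds many enhancers of cultured and tumour cells, often with the Hippo pathway factors TEAD and with RUNX. The nearest gene along the sequence is only a label for a site, since an enhancer can skip genes.

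The summit sequences below were chosen because each has the highest summit fold, among the members considered for display, of those that held the named motif. The fold is the pileup of reads at the summit plus 1, divided by a genome-wide background of 0.941 plus 1. All windows span 101 bp of hg38, centred on the summit and read 5′ to 3′ on the plus strand, with the motif in capitals on whichever strand it lies.
AP-1 (TGACTCA), chr7:155951757-155951857, 139 kb from the start of SHH: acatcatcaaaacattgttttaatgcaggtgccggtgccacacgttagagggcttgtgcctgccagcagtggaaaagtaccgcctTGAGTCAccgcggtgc
TEAD (GGAATG), chr5:8829403-8829503, 436 kb from SEMA5A: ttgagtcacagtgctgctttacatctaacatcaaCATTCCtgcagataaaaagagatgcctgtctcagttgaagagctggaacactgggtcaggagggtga
RUNX (TGTGGTT, the later capitals) and NF-kB (the earlier capitals), chr1:235012011-235012111, 108 kb from TOMM20: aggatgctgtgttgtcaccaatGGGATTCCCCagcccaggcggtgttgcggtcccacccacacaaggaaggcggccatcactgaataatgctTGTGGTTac
CTCF, chr17:68774406-68774506, 103 kb from ABCA8: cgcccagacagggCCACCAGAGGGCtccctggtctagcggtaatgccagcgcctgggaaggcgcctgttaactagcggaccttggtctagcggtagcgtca
These summits had folds of 97.9 (84.5 to 113, Poisson interval), 90.7 (77.8 to 105), 88.1 (75.4 to 102) and 29.4 (22.3 to 38.0). The CTCF member shown was thus weaker than those shown for the other 4 motifs, and the intervals did not overlap. The TEAD window also held an AP-1 site, and the window near TOMM20 was the strongest considered for RUNX and for NF-kB alike.

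Another pair of windows was chosen after their values were seen. The first held the most AP-1 sites among the member windows considered for display, and the second is the strongest AP-1 member nearest to TGFB2, the ligand gene of the pathway the study followed.
4 AP-1 sites, chr2:81658433-81658533, 1069 kb from CTNNA2: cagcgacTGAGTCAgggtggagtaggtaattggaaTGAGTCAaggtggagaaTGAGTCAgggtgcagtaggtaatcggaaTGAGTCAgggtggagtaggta
AP-1 near TGFB2, chr1:218659016-218659116, 225 kb from its start: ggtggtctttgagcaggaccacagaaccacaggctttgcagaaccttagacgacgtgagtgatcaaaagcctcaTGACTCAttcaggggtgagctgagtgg
In the first window successive sites began 28, 17 and 28 bases apart, so the spacing recurred. The bases between the sites were largely repeated too, so the 4 sites were part of a longer repeated sequence. The summit fold was 44.3 (35.5 to 54.7). In the second the site began 24 bp to the right of the summit, RUNX and C/EBP motifs lay in the same window, and the summit fold was 80.4 (68.3 to 94.0).

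Open sites became sparser with distance from protein-coding starts. Members numbered 12.2 per Mb (11.9 to 12.5, exact Poisson interval) over the 572 Mb of sequenced bases that met the rule. Intergenic peaks 1 to 100 kb from a start, the nearest comparable class, numbered 16797 at 35.3 per Mb (34.8 to 35.8). The eligible bases made up 20.8% of the sequenced autosomal genome, against 8.09% of the peaks. Within the members the density fell from 21.0 per Mb (20.3 to 21.8) at 100 to 200 kb to 13.2 (12.7 to 13.7) at 200 to 500 kb. It fell further to 8.54 (8.05 to 9.06) at 500 to 1000 kb and to 3.20 (2.87 to 3.55) beyond 1000 kb, where 349 members lay. None of these intervals overlapped. The lower density held on each of the 22 autosomes when members were set against the nearer class.

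**Figure D1:**
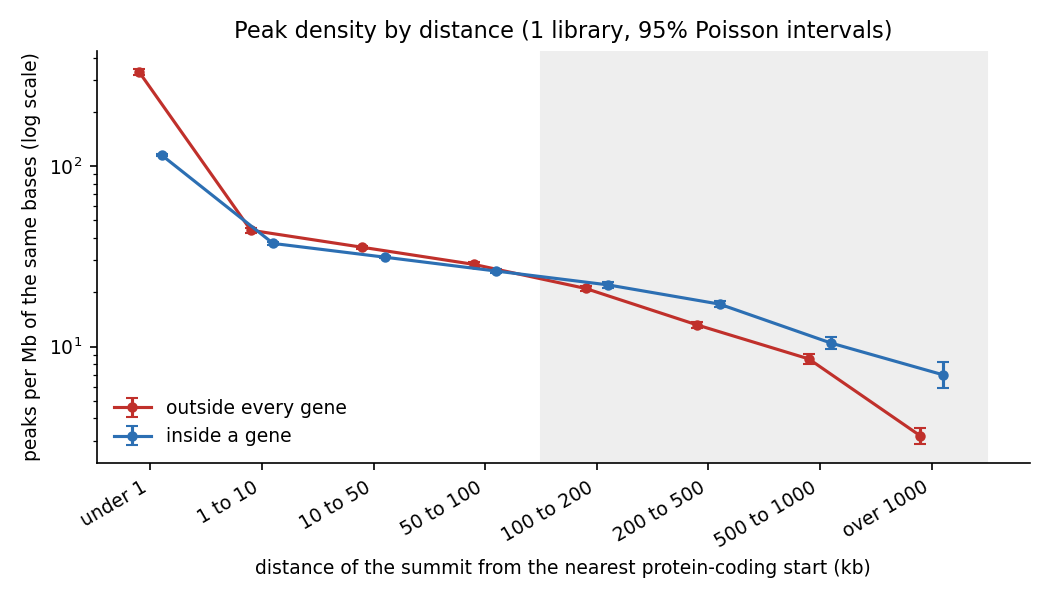
Peaks per Mb (log scale) against distance from the nearest protein-coding start in kb, for summits outside every gene (red) and inside a gene (blue). Bars are 95% Poisson intervals and the shaded part is the distance of the members, where the red line falls from 21.0 to 3.20 per Mb and lies below the blue line.

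Tandem repeats held few members. Bins of 100 kb in which over 50% of 24-base words recurred held 56.9 Mb, or 9.93%, of the eligible bases and 4 members. Without them the overall density was 13.5 per Mb (13.2 to 13.8), and the density beyond 1000 kb was 5.52 (4.95 to 6.13). The order of the 4 distance ranges was the same, with 21.0, 13.3, 9.12 and 5.52 per Mb. Reads of low mapping quality had been removed before peaks were called. How far this lowered the count in tandem-repeat bins was not tested, and nor were other repeat classes.

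Gene bodies were more densely open at most of these distances. Once tandem-repeat bins were left out outside genes, only the intervals at 200 to 500 kb stayed apart. Peaks inside a gene and over 100 kb from a start numbered 6807 at 17.6 per Mb (17.1 to 18.0). At 100 to 200 kb the density was 21.98 per Mb (21.2 to 22.7) inside genes and 21.0 outside, a small difference whose intervals overlapped. At 200 to 500 kb it was 17.2 (16.5 to 17.9) inside and 13.2 outside. At 500 to 1000 kb it was 10.5 (9.64 to 11.3) inside and 8.54 outside, or 9.12 (8.59 to 9.67) outside without tandem-repeat bins, with overlapping intervals. Beyond 1000 kb the density was 6.98 (5.91 to 8.20) inside and 3.20 outside. Without tandem-repeat bins the outside value there was 5.52, with an interval that overlapped with that inside genes. Tandem repeats inside genes were not left out.

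The members were nearly as strong as other non-promoter peaks. Their median summit fold was 9.28 (interval 9.28 to 9.79, 5th to 95th percentile 5.15 to 39.7), at a median pileup of 17 reads. Intergenic peaks nearer to genes had a median of 9.79 and peaks within 1 kb of a start 18.6. The ratio of the far to the near median was 0.947 (0.947 to 1), a step of 1 read in the median pileup. The far median was lower than the near one on 14 autosomes, equal on 2 and higher on 6, so the direction was not shared by all chromosomes. A fold of 20 or more was reached by 1389 members, or 19.9% (19.0 to 20.9), against 26.2% of all autosomal peaks and 21.5% (20.9 to 22.1) of nearer intergenic peaks. Depth was low for many members, as 2813 (40.3%) had a summit pileup under 15. The share was similar in nearer intergenic peaks (38.2%) and distant gene-body peaks (40.0%), and 20.2% within 1 kb of a start.

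Strength and width declined slowly beyond the limit. The median fold was 9.79 at 100 to 200 kb, 9.28 at 200 to 500 kb, 8.76 at 500 to 1000 kb and 8.24 (7.73 to 8.76) beyond 1000 kb. Median width went from 478 to 463, 447.5 and 414 bp over the same ranges. Over all members the median width was 464 bp (456 to 470), and the 5th to 95th percentile was 232 to 1223 bp. A width of 2 kb or more was reached by 42 members (0.602%). The share was 1.32% in nearer intergenic peaks, 1.15% in distant gene-body peaks and 9.82% within 1 kb of a start. Wider members had higher folds (Spearman's rho 0.786 across members, which are not independent). The medians of fold and width were thus lowest in the most remote range, while members at the lowest fold of 5.15 also lay within 100 to 200 kb, as some nearest to SMAD3 did.

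CpG islands, the CG-dense DNA of many promoters, were rare among the members. By a GC content of at least 60% and an observed over expected CpG of at least 0.6 within 201 bp of sequence around the summit, 85 members (1.22%, 0.975 to 1.505) were CpG-rich. The share was 4.45% in nearer intergenic peaks, 1.12% in distant gene-body peaks and 52.6% within 1 kb of a start. Median GC of the summit window was 45.5% in members, 49.5% in nearer intergenic peaks and 63.4% near starts. The members were still richer in GC than the bases they were drawn from, which had 38.1%. The CpG-rich members had a median fold of 12.4 (10.3 to 17.5), above that of the members as a whole.

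AP-1 was the most frequent motif of those searched. It lay within 50 bp of 1510 summits, or 21.7% (20.7 to 22.6), against 15.6% of all autosomal peaks. Flanking windows, equally wide, 1 kb to the left and right of the summit and clear of any peak, held it in 1.44%, so the share at summits was 15.1 times (13.0 to 17.5) as high. Nearer intergenic peaks held it in 17.1%, a difference of 4.60 percentage points (3.49 to 5.73), and 20 of the 22 autosomes had a higher share in members. Distant gene-body peaks held it in 20.2%, which differed by 1.47 points (0.108 to 2.82). The share was 5.54% near starts.

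RUNX and TEAD followed the same order, with smaller ratios. The RUNX motif lay in 7.31% (6.71 to 7.95) of member windows and in 1.86% of flanks, a ratio of 3.93 (3.38 to 4.56). Nearer intergenic peaks held it in 5.19%, 2.12 points fewer (1.44 to 2.83). The TEAD motif lay in 11.4% (10.7 to 12.2) of member windows and in 5.12% of flanks, a ratio of 2.24 (2.03 to 2.47), and was 1.46 points (0.604 to 2.35) above nearer intergenic peaks. Against distant gene-body peaks the intervals of both differences spanned 0, from -0.587 to 1.14 points for RUNX and from -0.676 to 1.44 for TEAD. NF-kB, the inflammatory factor, reached 1.09% against 0.443% of flanks (ratio 2.46, 1.75 to 3.46). Unlike RUNX and TEAD, its share was below the 1.49% of all autosomal peaks. It was also below nearer intergenic peaks (1.66%, difference -0.864 to -0.238 points) and distant gene-body peaks (1.47%, -0.762 to -0.00326).

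CTCF went the other way. Its motif lay in 144 member windows, or 2.06% (1.74 to 2.43), against 2.23% of all autosomal peaks, and in 2 of 13097 flanks. The ratio to the flanks, 135 (33.5 to 546), rested on those 2 and was above that of AP-1. Nearer intergenic peaks held it in 3.44%, so the members were 1.38 points lower (difference -1.80 to -0.928), and 18 of the 22 autosomes had a lower share in members. Distant gene-body peaks held it in 1.76%, a difference of 0.302 points whose interval (-0.158 to 0.763) spanned 0. CTCF was thus lower at distance from starts within intergenic DNA, whereas AP-1 was higher.

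Promoter motifs were scarce. SP/KLF (GGGCGGG) lay in 0.674% of member windows and 2.32% of nearer intergenic ones, and ETS (CCGGAAG) in 0.574% and 0.845%. Near starts their shares were 17.8% and 5.11%. Motifs of renal and other lineage factors had ratios to the flanks whose intervals spanned 1. HNF4 (AAAGTCC), a factor of tubule cells, had a ratio of 1.02 (0.800 to 1.31). For the GATA word AGATAAG the ratio was 1.09 (0.868 to 1.37). The FOX word TGTTTAC stood at 0.896 (0.718 to 1.12) and that of SOX, ACAATGG, at 0.968 (0.763 to 1.23). C/EBP (TTGCNNAA) was at 0.998 (0.886 to 1.12). HNF1, a factor of proximal tubule cells, had its strict motif in 0 of 6974 windows, against 0.0162% of all autosomal peaks. A count of 0 allows a share of up to 0.0430% by a limit of 3 counts and 0.0529% by the exact interval. Both limits lie above the share of all peaks, so the 0 does not set the members apart. These short words say nothing about which factors were bound.

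Motifs tied to the study's pathways differed in their ratios to the flanks. The SMAD palindrome GTCTAGAC, bound by the TGF-β effectors SMAD3 and SMAD4, lay in 7 members (0.100%), close to the 0.0916% of all autosomal peaks. Its ratio to the flanks was 1.31 (0.501 to 3.45), from too few members for a precise ratio. The ZEB/SNAIL E-box CAGGTG lay in 6.38% of members against 7.09% of flanks (ratio 0.900, 0.807 to 1.003). The hypoxia response core ACGTG was found in 5.86% against 3.90% (ratio 1.503, 1.32 to 1.71), an interval above 1. Its share was 7.04% in all autosomal peaks and 5.96% in distant gene-body peaks. Nearer intergenic peaks held it in 6.73% (difference -1.52 to -0.184 points), with a ratio to their flanks of 1.48 (1.37 to 1.60). The core was thus not more frequent in members. A scrambled AP-1 word, ACTCTGA, used as a control, had a ratio of 1.35 (1.10 to 1.65). The intervals of these last words overlapped, though they differ in base composition.

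**Figure D2:**
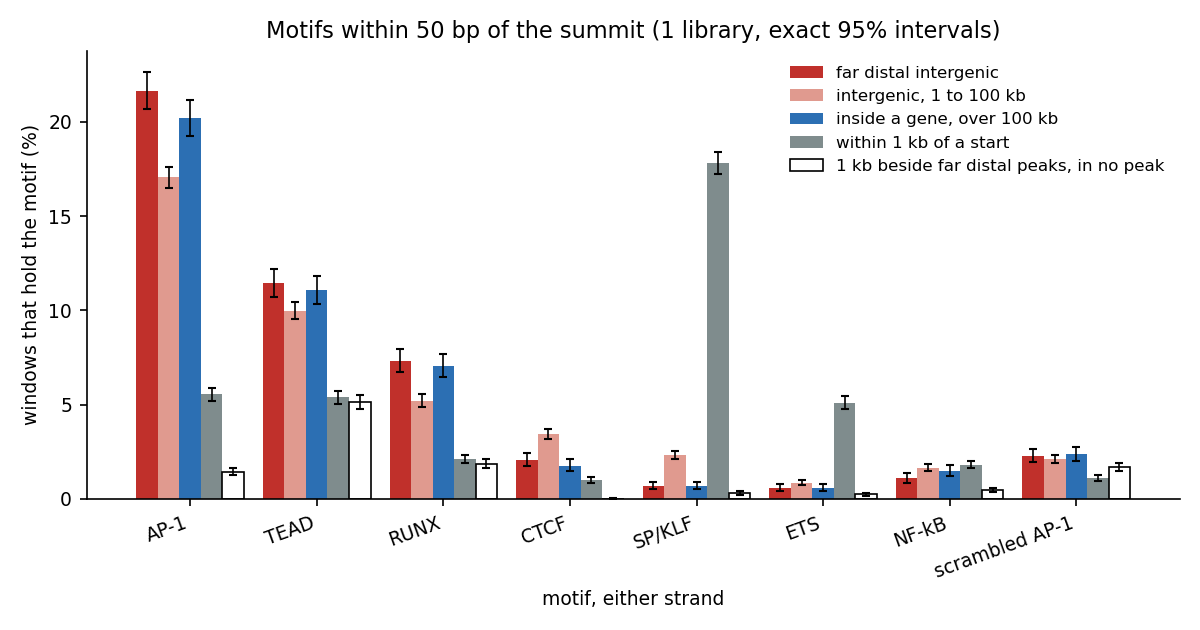
Percent of 101 bp summit windows that held each motif on either strand, in 4 classes of peak, with windows 1 kb beside the members as open bars and exact 95% intervals. AP-1, TEAD and RUNX stand higher in members (21.7, 11.4 and 7.31%) than in nearer intergenic peaks, CTCF stands lower (2.06 against 3.44%), and SP/KLF and ETS are high only near starts among the 4 classes.

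The AP-1 difference between far and near intergenic peaks was also present within ranges of GC content and of peak strength. In windows of 45 to 50% GC, AP-1 lay in 24.9% (22.8 to 27.1) of members and 19.0% (17.7 to 20.3) of nearer intergenic peaks, and at over 55% GC in 18.5% and 12.9%. In all 5 GC ranges the member share was the higher, with overlapping intervals at up to 40% and at 50 to 55% GC. Among summits of fold 7 to 10 the shares were 21.4% (19.4 to 23.5) and 14.6% (13.5 to 15.8), and among those of fold over 40 25.3% (20.8 to 30.2) and 24.7% (22.02 to 27.6). The gap was therefore small among the strongest peaks, and the intervals also overlapped at folds of 15 to 20. CTCF was lower in members in each of the 5 GC ranges and 6 fold ranges, but the intervals overlapped in all 5 GC ranges and in 3 of the 6 fold ranges.

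With distance the AP-1 share of peaks outside genes rose over most of the range. It was 15.0% at 1 to 10 kb, 17.2% at 10 to 50 kb, 18.9% at 50 to 100 kb, 20.7% at 100 to 200 kb, 21.6% at 200 to 500 kb and 25.3% (22.8 to 28.0) at 500 to 1000 kb. Beyond 1000 kb it was 19.2% (15.2 to 23.7), from 67 of 349 members, so the last step went down. CTCF fell from 3.92% at 1 to 10 kb to 1.17% (0.625 to 1.99) at 500 to 1000 kb and stood at 3.72% (1.998 to 6.29) beyond, from 13 members. Peaks inside genes had a similar course up to 1000 kb, so it was not particular to intergenic DNA. Their AP-1 share was 16.2% at 1 to 10 kb, 23.3% (19.96 to 26.8) at 500 to 1000 kb and 23.5% (16.9 to 31.1) beyond. Their CTCF share was 2.59%, 1.49% (0.681 to 2.80) and 2.68% (0.736 to 6.73) in the same ranges.

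The sites clustered at the summit. Per 1000 members and 20 bp, the centre held 50.1 AP-1 sites against 3.99 beyond 300 bp, a ratio of 12.6. RUNX reached 15.9 against 4.27 and TEAD 25.6 against 12.8, while the scrambled word was at 5.59 against 3.51. CTCF sites were most frequent to either side of the summit, with 47 sites centred 20 to 40 bp to the left and 58 sites 20 to 40 bp to the right, against 16 in each of the central 20 bp bins. The centre still held 45.7 times as many CTCF sites as a bin beyond 300 bp. The median offset of CTCF sites within 50 bp was 31.5 bp, and that of AP-1 sites 24 bp.

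**Figure D3:**
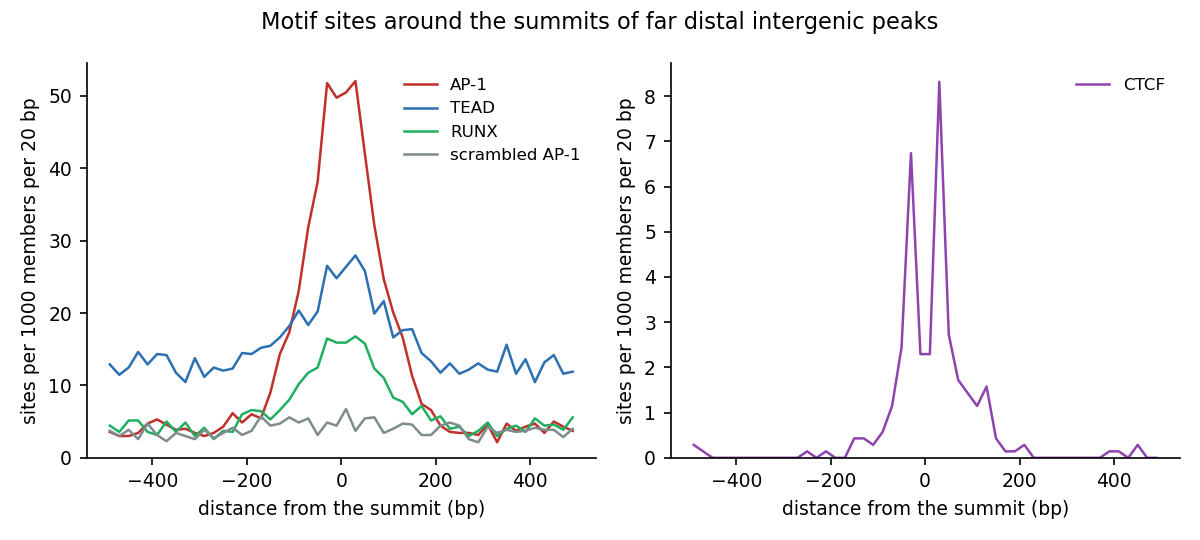
Motif sites per 1000 members per 20 bp against distance from the summit in bp, for AP-1, TEAD, RUNX and a scrambled AP-1 word (left) and CTCF (right, own axis). AP-1 peaks at about 50 over a level near 4, and CTCF has a peak to each side of the summit with a dip at its centre.

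Members with AP-1 and members with CTCF differed in strength and shape. The 1510 with AP-1 had a median fold of 10.3 (9.79 to 10.8) and the 5464 without it 9.28 (8.76 to 9.28). A fold of 20 or more was reached by 24.7% (22.5 to 26.96) of the former and 18.6% (17.6 to 19.7) of the latter. The 127 members with 2 or more AP-1 sites had a median fold of 12.4 (10.3 to 14.9). CTCF members had a median fold of 8.24 (7.21 to 9.28) and a width of 381 bp (363 to 392), against 466.5 bp (460 to 474) for the rest, and 4 of 144 reached a fold of 20. Only 3 windows held both motifs, which is 0.199% of the AP-1 members and 2.08% of the CTCF members. TEAD lay in 9.80% (8.35 to 11.4) of AP-1 members and in 11.9% (11.05 to 12.8) of the others, and RUNX in 5.23% (4.16 to 6.48) and 7.89% (7.19 to 8.63), so neither was more frequent beside AP-1 in these 101 bp windows.

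The 10 members of highest fold reached 97.9 to 128. The strongest, chr7:121530024-121531303, had 248 reads at its summit and a fold of 128 (113 to 145), and lay 134 kb from FAM3C, which encodes a secreted factor. Next was chr5:5665183-5666628 at 119 (104 to 135), 243 kb from ICE1, a subunit of the little elongation complex. Neither held an AP-1, CTCF, TEAD, RUNX, NF-kB, SP/KLF or ETS word at its summit. Genes of secreted signals stood nearest to others of the 10. A member at chr1:218705293-218706899, fold 102 (87.9 to 117), lay 272 kb from TGFB2, and chr7:155950860-155952691, fold 97.9, lay 139 kb from SHH, the Hedgehog ligand. A further member at chr5:30849769-30850721, also at 97.9 (84.5 to 113), lay 344 kb from CDH6, a cadherin of the developing kidney. The intervals of neighbours in this order overlapped.

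The other 5 of these 10 included both CpG-rich members of the group. These were chr7:25862016-25863071, fold 105 (90.7 to 120), 290 kb from NFE2L3, a bZIP transcription factor, and chr8:134830307-134833669, fold 110 (96.0 to 126), 120 kb from the zinc-finger factor gene ZFAT. The latter was 3363 bp wide. On chromosome 8 there were also members near EXT1, a heparan sulphate polymerase (fold 111, 96.5 to 127), the potassium channel subunit gene KCNV1 (105, 91.2 to 121) and C8orf90 (98.9, 85.5 to 114). AP-1 was present in 2 of the 10, those near SHH and C8orf90. Across the autosomes the strongest member ranged from a fold of 22.2 on chromosome 19, near TSHZ3, to 128 on chromosome 7.

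The strongest members were unevenly spread over chromosomes. Of the 100 of highest fold, 22 lay on chromosome 8, which held 7.51% of all members, 16 on chromosome 1 (7.13%) and 12 on chromosome 7 (6.07%). Chromosome 2, with 11.9% of members, also had 12, and chromosome 5, with 8.22%, had 8, both close to their share. On chromosome 8 the 90th percentile of fold was 36.1 in members and 41.9 in nearer intergenic peaks, so high folds there were not limited to members. Chromosome 8 also had the highest density, 18.0 per Mb (16.5 to 19.6), and a median fold of 10.8 (9.79 to 11.9). The lowest density was 6.05 per Mb (4.74 to 7.60) on chromosome 21, and the lowest median fold 7.73 (7.73 to 9.28) on chromosome 18. Without tandem-repeat bins the density ran from 7.18 on chromosome 14 to 19.3 on chromosome 8, and chromosome 19 moved from 6.14 to 13.9. Folds were all taken over 1 genome-wide background, and copy number was not measured here.

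**Figure D4:**
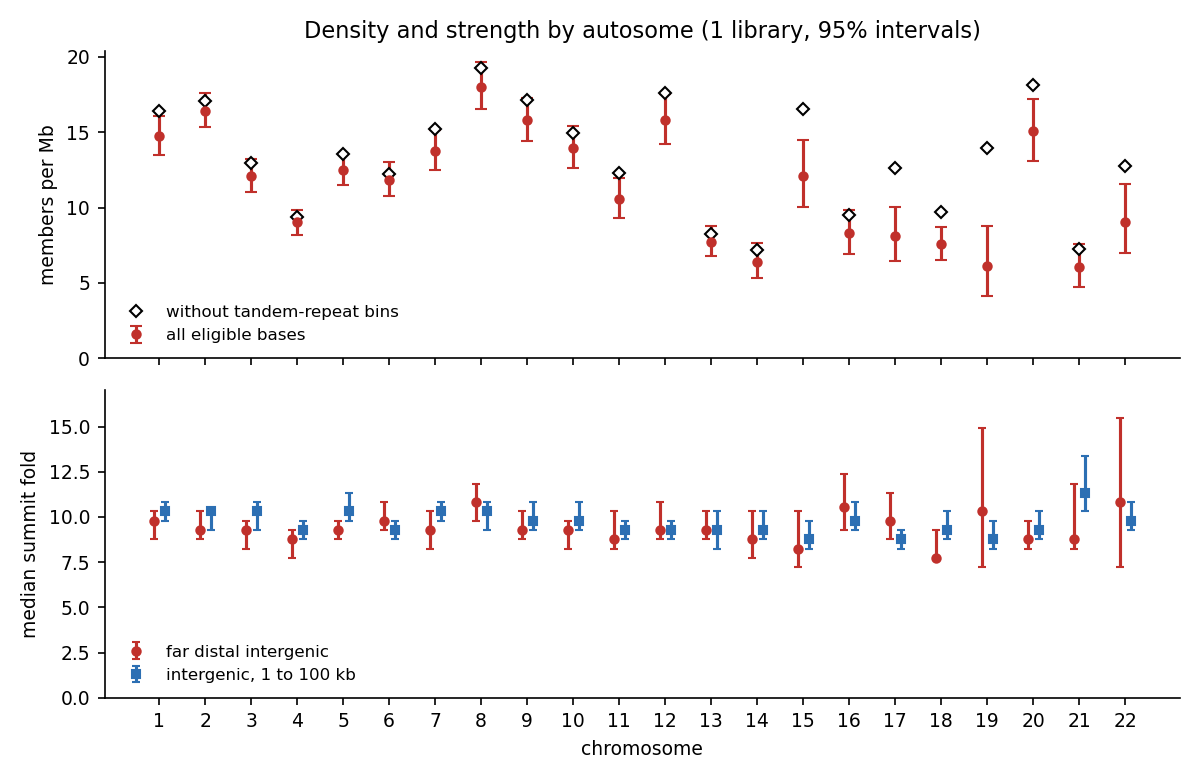
Members per Mb of eligible bases (top, with open diamonds without tandem-repeat bins) and median summit fold of members and of nearer intergenic peaks (bottom) for each autosome, with 95% intervals. Density ranges from 6.05 on chromosome 21 to 18.0 on chromosome 8, and the medians of members lie between 7.73 and 10.8.

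Members were more isolated than other peaks, yet many stood in groups. The median gap to the nearest peak of any class was 9330 bp, against 4987 bp for nearer intergenic peaks and 8109 bp for distant gene-body peaks. Another peak lay within 12.5 kb of 56.3% of members and of 75.9% of nearer intergenic peaks, and 488 members (6.997%) had none within 100 kb. Joining members whose summits were at most 12.5 kb apart gave 3220 that stood alone and 1356 groups, which held 53.8% of the members. Groups of 5 or more numbered 124 with 759 members. Their median fold was 11.9 (10.8 to 13.4) against 8.24 (8.24 to 8.76) for members alone. The AP-1 share was 21.2% (18.4 to 24.3) in these groups and 21.8% (20.4 to 23.3) in members alone, with overlapping intervals, while CTCF lay in 1.32% (0.634 to 2.41) and 2.92% (2.37 to 3.56).

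The groups with the most members were spread over several chromosomes. The largest held 11 members over 35.6 kb, 108 kb or more from ERRFI1, which encodes an inhibitor of the EGF receptor, with folds up to 23.7. The next held 10 over 51.3 kb near DAP, and 2 groups of 9 lay near ZFP36L2, an RNA-binding regulator (highest fold 53.1), and KHDRBS3 (50.0). These groups were named after their sizes were seen.

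Eligible bases formed 7521 unbroken stretches, with a median length of 32.9 kb, and 2535 of them (33.7%) held a member. The 67 stretches with 10 or more members held 872 members, or 12.5%, in 3.61% of the eligible bases. They were picked by that count, which favours a high density. The fullest, chr2:226185372-226658709 between NYAP2 and IRS1, the insulin receptor substrate, held 28 members with folds from 5.15 to 59.3, 7 of them with AP-1. Its density was 59.2 per Mb (39.3 to 85.5). A stretch of 381 kb on chromosome 9 between TLR4 and BRINP1 held 23 members, 12 with AP-1 and a highest fold of 80.9, and a later stretch between the same genes held 17. The densest of the 10 fullest, chr2:71710780-71984181 between DYSF and CYP26B1, a retinoic acid hydroxylase, held 23 at 84.1 per Mb (53.3 to 126). Folds there ran from 5.15 to 60.3.

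The rest of the 10 fullest stretches held 17 to 21 members each. They lay between KLF4 and ACTL7B, COL22A1 and KCNK9, TENM4 and FAM181B, CSNK1G3 and ZNF608, TGFB2 and LYPLAL1, and SNTB1 and HAS2, the hyaluronan synthase. The stretch beside TGFB2 held 17 members over 340 kb, with folds from 5.67 to 102, and 6 of them reached 20. The intervals of density overlapped among these 10.

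The longest stretches without members were tandem repeats. Of the 16 stretches of 1 Mb or more, 3 held a member, with 7 between CELF4 and PIK3C3 on chromosome 18, 4 between DIPK2A and PLOD2 on chromosome 3, and 2 between SPRY2 and SLITRK1 on chromosome 13. The 5 longest without a member, on chromosomes 17, 19, 5, 1 and 12, had 82.4 to 93.6% recurring words, and the 3 with members under 1%. At 50% or fewer recurring words the longest empty stretches were 615 kb between EYS and ADGRB3, 576 kb between GBE1 and CADM2 and 549 kb between GRIK2 and HACE1.

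By nearest start, the members fell to 1525 protein-coding genes. The most belonged to BRINP1 (37), IRS1 (34), TMEM132C (32), KLF4 (31), IGFBP3 (30) and TENM4 (30). KLF4 is a zinc-finger factor of epithelial differentiation and IGFBP3 binds insulin-like growth factors. Densities near them were 37.7 per Mb (26.5 to 51.9), 67.2 (46.5 to 93.9), 45.8 (31.3 to 64.6), 53.4 (36.3 to 75.8), 60.2 (40.6 to 85.9) and 20.1 (13.6 to 28.7), against 12.2 for the whole. These genes were picked for their counts of members, which favours high densities, so the comparison is no evidence of an excess.

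Genes of 7 lists were then compared by the members nearest to them. Since density falls with distance, each list was also set against the number that the density of all members at the same distances would give, leaving out tandem-repeat bins. The lists were chosen with earlier results of these data known, and their counts are descriptions. Genes named from the lists were mostly picked for their own counts of members, which favours counts above the number given by distance. For a named gene, a count above that number is thus no evidence of an excess. Over all genes the density was 12.2 per Mb, the median fold 9.28 and the AP-1 share 21.7%.

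The TGF-β pathway, which drives epithelial to mesenchymal transition, had 96 members in 3.81 Mb. Of its 40 genes, 15 had eligible bases and 13 had a member. The density was 25.2 per Mb (20.4 to 30.8), and the count was 1.79 times (1.45 to 2.18) that given by distance, or 1.91 times without ACVR2A. Among ligands, TGFB2 had 14 members with folds up to 102 where its distances gave 4.36. The bone morphogenetic protein genes BMP2 and BMP7 had 12 against 6.91 and 10 against 3.06. The activin subunit genes INHBA and INHBB had 11 against 6.09 and 10 against 1.95. Among receptors, TGFBR2 had 6 members against 1.69, with a median fold of 18.0, and ACVR2A had 18 against 12.9. SMAD6, an inhibitor of the pathway, had 6 against 1.46, and SMAD3, an effector, had 3 against 0.827. Below the number given by distance were GDF6 (1 against 3.94), ID4 (2 against 3.48), SMAD2 (2 against 3.31) and BMP4 (1 against 2.36), and 2 genes with eligible bases had no member. The list's median fold was 8.76 and its AP-1 share 15.6% (9.02 to 24.5), neither above that of all members.

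The mesenchymal transition and movement list of 18 genes had 51 members, 2.02 times (1.51 to 2.66) the count given by distance. CDH2, the N-cadherin gene, had 25 against 14.9, ZEB2, a repressor of E-cadherin, 11 against 5.19 and the metalloproteinase gene MMP16 6 against 1.42. The median fold of 7.73 was below that of all members. Of 28 kidney cancer and hypoxia genes, 7 had eligible bases, only 0.628 Mb in all, with 32 members, 3.26 times (2.23 to 4.60) the count given by distance. Among them MYC, a transcription factor of cell growth, had 11 against 2.3. AP-1 lay in 43.8% (26.4 to 62.3) of this list's members.

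Renal lineage factors had 137 members in 7.46 Mb, at 18.4 per Mb (15.4 to 21.7) and 1.34 times (1.13 to 1.58) the count given by distance, or 1.22 times (1.004 to 1.47) without GATA3. Of the 31 genes, 19 had a member. GATA3, a factor of the ureteric bud and collecting duct, had 26 against 11.3, SOX9, which marks injured and regenerating tubules, 22 against 9.60, and TFCP2L1, a collecting duct factor, 10 against 2.19. TFAP2A and TFAP2B had 13 each, against 3.55 and 7.30. OSR1, among the earliest factors of the kidney lineage, had 7 against 1.92, with a median fold of 21.6. SOX11 had 13 against 15.5 and IRX1 6 against 10.5, so these did not exceed the number given by distance. Further below it were IRX2 (2 against 9.40), HNF4G (2 against 6.74), IRX5 (1 against 5.29) and POU3F3 (2 against 4.51).

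Developmental factor families matched the number given by distance and neuronal adhesion genes fell below it. The 300 genes of FOX, SOX, KLF, TBX and like families had 379 members, 1.04 times (0.934 to 1.15) that number, although their density of 15.2 per Mb (13.7 to 16.8) was above the whole. KLF4 had 31 against 7.73, KLF6 16 against 6.87, TBX3 17 against 7.90 and FOXA2 12 against 4.09. The 70 neuronal adhesion and synapse genes, which border many gene deserts, had 325 members in 54.7 Mb, at 5.94 per Mb (5.31 to 6.62) and 0.536 times (0.480 to 0.598) that number. Their median fold was 7.73. GRIK2, a glutamate receptor gene, had 1 member in 1.22 Mb. CDH6 and CDH9 of this list had 25 and 27, and CDH6 is also a kidney gene. The AP-1 family and its cofactors had little eligible sequence, 0.05 Mb, and 6 members there against 0.931 by distance, 6.45 times (2.37 to 14.03) as many. Of these, 4 were nearest to BACH2 and 1 each to RUNX2 and JUN, the last at a fold of 50.0. Without BACH2 the ratio was 3.95 (0.478 to 14.3), an interval that spanned 1.

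**Figure D5:**
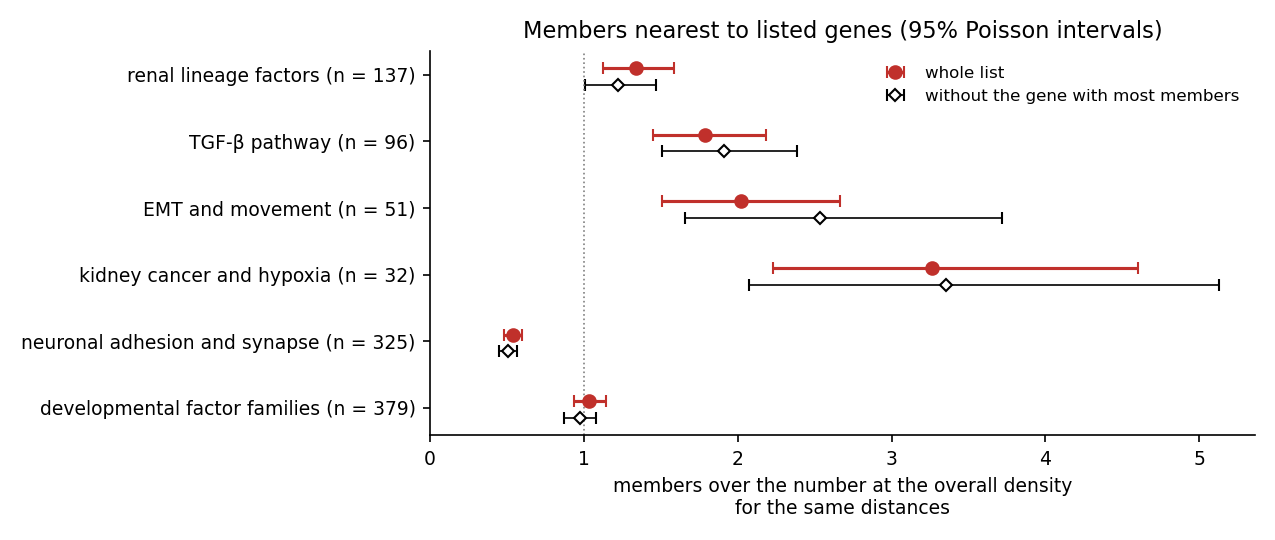
Members nearest to the genes of 6 of the 7 lists (the AP-1 list, with 6 members, is not drawn), divided by the number that the density of all members at the same distances would give, with 95% Poisson intervals, for whole lists and without the gene with most members. The kidney cancer list stands at 3.26, the TGF-β list at 1.79, developmental families at 1.04 and neuronal adhesion genes at 0.536.

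Annotation decided part of the membership. Measured from starts of genes of any type, 1358 peaks met the rule, so most members lay within 100 kb of some annotated start. By the RefSeq gene table, 1159 members (16.6%, 15.8 to 17.5) lay inside a gene, 969 of them in loci without a symbol of their own, and 3 of the 10 strongest were among them. Their median fold was 9.79 and their AP-1 share 21.0%. A summit lay in a RefSeq promoter window for 63 members (0.903%), with a median fold of 10.8. At the distance limit, the nearest members inside were at 100030, 100049 and 100088 bp, with folds of 19.1, 7.21 and 15.5, and the nearest peaks outside were at 99961, 99920 and 99901 bp, with folds of 19.1, 8.76 and 33.5.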

How the data were processed

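The data were the ATAC-seq peaks of 1 library of empty-vector 786-O cells. Per the study's methods and the submitters' processing notes, the authors used fastp for trimming and Bowtie2 2.3.4.3 for alignment to hg38, removed mitochondrial, low-quality and duplicate reads, and called peaks with MACS2 2.2.6 against a genome-wide background. A Tn5 shift is not stated, so summits may sit some bases from the cut. The deposited ratio is the fold enrichment at the summit. The deposited significance values are −log10 p-values and −log10 q-values, and the deposited score, at least 52, is the latter multiplied by 10 and cut to a whole number. Pileups were recovered from the folds as whole numbers to within 1.83e-05 and gave the depth per peak, from 9 to 300. Taking the highest point of each peak biases this depth upward, and library size is unknown.

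Genes and transcript starts came from GENCODE release 44, and RefSeq genes from the RefSeq table. Distances and densities used all sequenced bases of the same class. Either strand was searched for motifs within 50 bp of summits. CTCF, HNF1 and NF-kB have letters that stand for several bases and are named only. Shares carry Clopper-Pearson, counts Poisson, medians order-statistic and differences of shares Newcombe 95% intervals. Ratios of shares carry log-normal intervals. The functions were tested on simulated data. The scripts ran under Python 3.11.15 with matplotlib 3.10.9, numpy 2.4.6, statsmodels 0.14.6, pandas 2.3.3 and scipy 1.17.1.

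The members and lists were chosen with earlier results of these data known. Named were the 10 members of highest fold, the 10 stretches with most members, the 5 densest of at least 1 Mb and the 5 longest empty ones, the strongest member with each of 6 motifs (sequences on chromosome 8 are not shown), the 3 summits on each side of the limit, the genes nearest to these, and list genes, mostly those with 5 or more members. Other genes and groups named were chosen after their values were seen. Alternatives for the score minimum, the distance, the genes and starts used, the chromosomes and the motif window were computed. The values of 1 listed gene are not reported here.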

Additional observations from a re-analysis of the deposited data

Results flagged for a closer look

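The list held 2437 peaks outside chromosomes 1 to 22 that no comparison used. Of these, 2236 lay on chromosome X, with a median summit fold of 9.79, 140 on chromosome Y and 61 on other sequences, with a median of 7.21. They stand out as data outside the main measurement, and the library has no control sample to set them against.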

How the results depend on the processing

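Of 72 recomputed values, 39 stayed within the counting interval or 1.5 times the count, and the ratio of the far to the near median fold did so under all 10 of its settings (0.947 to 1). A score above 100 left 4469 members (7.59% of peaks, 7.81 per Mb, median fold 13.4, AP-1 23.97%), and a score above 200 left 2717 (6.84%, 4.75 per Mb, fold 20.1, AP-1 25.4%, CTCF 1.40%), since it removes weak peaks. A limit of 50 kb gave 10810 members (12.5%, 15.3 per Mb, AP-1 20.7%) and 200 kb gave 3962 (4.59%, 9.24 per Mb). Gene record starts gave 9.55% and 13.4 per Mb, and starts of genes of any type 1358 members (1.57%, 7.16 per Mb, CTCF 2.50%). Outside protein-coding genes only there were 11620 (13.5%, 13.8 per Mb). Without chromosomes 5, 7 and 8 the values were 7.74% and 11.7 per Mb. Searching 100 bp to each side gave AP-1 33.9% and CTCF 2.93%. After the data were seen, tandem-repeat bins (13.5 per Mb without them) and RefSeq genes (6.74% outside these as well) were added. Apart from the construction of each setting, the cause was not tested. No paired analysis was possible because 1 library was analysed here. Depth limits single peaks: 2813 members (40.3%) rested on a pileup under 15, as did 38.2% of nearer intergenic peaks. Base composition, mappability outside tandem repeats and copy number were not modelled.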
